A study of Mus musculus with 4 samples.

Results

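The cytosolic ribosomal protein genes code for the proteins of the ribosome outside mitochondria. They were followed here in single-nucleus RNA profiles of whole mouse hypothalamus. Members were all symbols made of Rpl or Rps, digits and at most 1 further letter, plus Rplp0, Rplp1, Rplp2 and Rpsa, that had 10 or more UMIs (unique molecular identifiers, each standing for 1 counted RNA molecule) summed over the matrices labelled control. Of 32285 genes in the files, 80 had such a symbol and 77 were members, 46 of the large subunit (Rpl) and 31 of the small subunit (Rps). The member nearest above the limit was Rps27l, with 56 UMIs in control replicate 1 and 28 in control replicate 2, and the symbols below it were Rpl3l and Rpl39l with 1 UMI each and Rpl10l with 0. Rps3a1, Fau, Rpl22l1 and Rpl36al, among others, fall outside the rule's form of symbol.

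Each ribosome holds 1 copy of nearly every one of these proteins, and their mRNAs are among the most abundant of the cytoplasm. A nucleus holds only the newly made and not yet exported part of them, together with cytoplasmic RNA that clings to it or floats free during isolation. Most of these mRNAs begin with a C followed by a run of pyrimidines, the 5′ terminal oligopyrimidine (TOP) motif, through which mTOR signalling sets their translation.

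The study compared mice of about 18 months whose hypothalamus was transplanted with hypothalamic stem cells made from human pluripotent stem cells (transplanted, 2 samples) with control mice (2 samples). All 4 samples were nuclei from frozen whole hypothalamus, sequenced from the 3′ end. Genotype, strain and sex are not given in the labels, 2 titles join 2 animal codes, and what the control mice received is not stated. The matrices held 2151 to 4020 nuclei, 4891189 to 8844994 UMIs and a median of 1813 to 2049 UMIs per nucleus.

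The same nuclei stood under both labels. Transplanted and control replicate 1 had 3997 barcodes in common (99.7% of the control-labelled ones) and transplanted and control replicate 2 had 2144 (99.7%), while any other 2 matrices had 4. Over the 77 members, squared differences of the UMI totals between these deposits were 0.196 and 0.205 times their sampling variance, less than 2 independent samplings give, against 22.4 to 22.9 times between different libraries. The 4 matrices therefore gave 2 distinct libraries, each counted as 1 sample, and levels below are those of the control-labelled deposits. They therefore allow no estimate of what transplantation does.

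Promoter sequence from RefSeq (build GRCm38.p6) was at hand for 57 of the 77 members. A run of 8 or more C or T on the gene's own strand, reaching within 10 bases of a listed transcription start, was found for 28 of the 57 (49.1%), against 16.1% of the 27025 genes of that table. The sequence CCGGAAG, the core bound by ETS factors, was found on either strand of the 300-base promoter (250 bases before the start and 50 after) for 24 (42.1%) of the 57, against 9.93% of genes. AAGATGGC, the YY1 core, was found for 5 (8.77%), against 3.19% of genes, and TATAAA, the TATA box, for 6 (10.5%), against 15.7%. These matches describe letters only. The stretches below run from 60 bases before to 15 after the start. The pyrimidine run is in capitals where it has 8 or more bases and reaches within 10 bases of the start. Runs that end farther from the start, as in Rpl5 and Rps16, are left in small letters and were not counted. They are shown for Rpl27a (the member with most UMIs), Rpl38 and Rps24 (called in 2 glial classes), Rpl13a, Rpl37a, Rps16 and Rps28 (far lower in 1 library) and Rpl5 (higher in that library).
Rpl27a, chr7:109519135-109519209, plus strand: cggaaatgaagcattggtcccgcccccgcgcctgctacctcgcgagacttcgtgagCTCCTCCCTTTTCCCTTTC
Rpl38, chr11:114668520-114668594, plus strand: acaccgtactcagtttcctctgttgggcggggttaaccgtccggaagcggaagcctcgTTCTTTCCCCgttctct
Rps24, chr14:24490618-24490692, plus strand: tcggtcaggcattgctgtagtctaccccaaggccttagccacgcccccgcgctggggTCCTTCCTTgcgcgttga
Rpl13a, chr7:45128731-45128805, minus strand: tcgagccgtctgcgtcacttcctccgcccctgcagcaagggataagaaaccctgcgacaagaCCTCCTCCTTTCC
Rpl37a, chr1:72711200-72711274, plus strand: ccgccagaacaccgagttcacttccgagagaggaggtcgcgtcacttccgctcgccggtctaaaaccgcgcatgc
Rps16, chr7:28350629-28350703, plus strand: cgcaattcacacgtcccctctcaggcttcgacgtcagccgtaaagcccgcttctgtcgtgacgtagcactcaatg
Rps28, chr17:33824548-33824622, minus strand: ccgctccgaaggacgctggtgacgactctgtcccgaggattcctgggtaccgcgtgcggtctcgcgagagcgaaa
Rpl5, chr5:107900468-107900542, plus strand: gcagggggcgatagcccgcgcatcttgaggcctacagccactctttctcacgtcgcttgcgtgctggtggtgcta

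Ribosomal protein RNA was a small part of the nuclear RNA. Members summed to 16283 UMIs, 0.185% of all UMIs, in control replicate 1 and 13576 UMIs, 0.276%, in control replicate 2. A UMI of any member was found in 95.5% of nuclei in control replicate 1 and 98.3% in control replicate 2. UMIs per member ranged from 84 for Rps27l to 962 for Rpl27a. Because reads come from the 3′ end and were not scaled per length, these counts show the depth behind each gene and are not ranked as expression. Next to Rpl27a, a large subunit protein, the deepest members included Rpl37 (900 UMIs), Rpl21 (821), Rpl41 (818), Rpl13 (699), Rpl5 (685), Rpl38 (673), Rps27a (672) and Rpl6 (659). Thin members included the stalk protein gene Rplp0 (143 UMIs) and Rpl36a (166), so single values of these rest on few counts in the smaller classes.

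Under the labels as deposited, no member passed the test. Of 77 members, 0 passed edgeR's quasi-likelihood test of the matrices labelled transplanted against those labelled control, 0 reached an unadjusted p of 0.05 and 0 were called by DESeq2, with 0.0% of 14940 genes called in all. Log2 differences of the members ran from -0.13 to 0.14 with a median of -0.01. Rpl10a, a large subunit protein, had 244 and 170 UMIs under the transplanted label and 230 and 148 under the control label, a log2 difference of 0.14 (SE 0.14, edgeR adjusted p = 0.999997). With 2 matrices on each side the smallest p of an exact permutation test is 0.33, and these are the same nuclei.

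Nuclei were clustered without the members' counts, and clusters were named from markers. Each name stands for the likeness of a cluster to that cell type ("neuron" for neuron-like). Neurons made up 74.6% of nuclei in control replicate 1 and 66.6% in control replicate 2, in 13 clusters, some led by hypothalamic peptide genes such as Hcrt, Pmch, Avp and Oxt. Oligodendrocytes (659 nuclei over both libraries), astrocytes (503), oligodendrocyte precursors (206), tanycytes with ependymal cells (171) and microglia (101) formed 1 cluster each, and 1 cluster of 50 nuclei with mixed markers stayed unnamed. Hbb-bs, a haemoglobin gene, was among the 10 leading genes of the tanycyte cluster.

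Ribosomal protein genes took a larger share of the RNA of every glial class than of neurons, in both libraries, over nuclei of all depths. Among nuclei of 500 to 1500 UMIs this was no longer so in control replicate 1 for astrocytes (0.293%), precursors (0.273%), tanycytes (0.293%) and microglia (0.273%), against 0.301% in neurons. In oligodendrocytes, the myelin-forming cells, members made up 0.310% of UMIs in control replicate 1 and 0.498% in control replicate 2, against 0.175% and 0.251% in neurons. Oligodendrocytes thus stood 1.78-fold above neurons in the first library (95% interval of the log2 ratio 0.73 to 0.93) and 1.99-fold in the second (0.90 to 1.08). In astrocytes the share was 0.286% and 0.406%, which is 1.64-fold and 1.62-fold the share in neurons. Oligodendrocyte precursors had 0.251% and 0.357%, the smallest gap to neurons, at 1.44-fold and 1.43-fold. Tanycytes and ependymal cells had 0.275% and 0.525%, and microglia, the resident macrophages, 0.273% and 0.544%. As means over the libraries the shares were 0.404% ± 0.133 in oligodendrocytes, 0.346% ± 0.0845 in astrocytes, 0.304% ± 0.0749 in precursors, 0.400% ± 0.176 in tanycytes, 0.408% ± 0.192 in microglia and 0.213% ± 0.0539 in neurons (SD, n = 2 libraries each). The second library was higher in every class. Within the glia, the order of classes differed between the libraries.

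**Figure D1:**
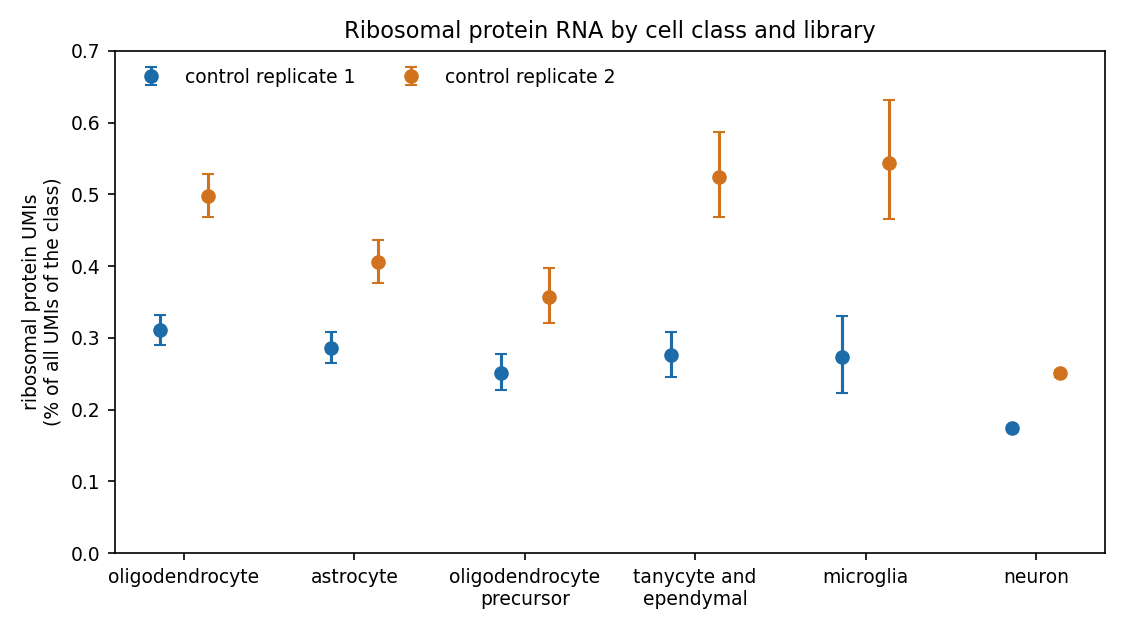
Share of all UMIs of a class (y axis, %) that belonged to the 77 members, for each cell class and control-labelled library (points, with exact Poisson 95% intervals for counting error). Neurons lie lowest in both libraries, at 0.175% and 0.251%, and every class is higher in control replicate 2.

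Counted per nucleus, the order was the opposite. An oligodendrocyte held 2.32 member UMIs on average in control replicate 1 and 3.70 in control replicate 2, an astrocyte 2.35 and 3.56 and a microglial nucleus 1.89 and 3.76, against 4.56 and 7.23 in a neuron. The median oligodendrocyte had 670.5 and 686 UMIs in all, against 2257 and 2630 in the median neuron. After thinning every nucleus to 500 UMIs, a UMI of any member remained in 77.3% and 92.3% of oligodendrocytes, against 61.9% and 73.8% of neurons, where the unthinned shares were 87.4% and 96.8% against 98.0% and 99.2%. No class is free of these transcripts, so no share of free RNA could be read from a class that lacks them. Haemoglobin RNA, abundant in red blood cells, stood at 32.2 and 104 CPM (UMIs brought to 1 common total in each class and library) in oligodendrocytes and 24.1 and 102 CPM in astrocytes, against 5.38 and 19.4 CPM in neurons. Its part in the class differences was not tested.

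By gene, called differences in oligodendrocytes and astrocytes were all towards the glia. In oligodendrocytes 35 of 77 members were higher than in neurons and 0 were lower by edgeR's quasi-likelihood test with adjustment over all 12993 genes tested, where 14.7% of genes were called higher and 21.4% lower. The median log2 difference was 0.95 over the members and -0.26 over all genes tested. In astrocytes 16 members were higher and 0 lower (background 13.4% higher and 17.8% lower), with medians of 0.70 and -0.22. Of the members called, 14 were called in both classes, 40% of the oligodendrocyte calls and 87.5% of the astrocyte calls. Both contrasts share the neurons, and the overlap over all genes was not counted, so whether this overlap is large cannot be told. DESeq2 called 18 in oligodendrocytes and 8 in astrocytes, and the share of all genes that it called is not given here.

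Among small subunit genes, Rps24, which in humans is a gene of Diamond-Blackfan anaemia, stood at 75.2 and 179 CPM in oligodendrocytes and 84.3 and 131 CPM in astrocytes, against 32.4 and 49.2 CPM in neurons. Its log2 difference was 1.65 in oligodendrocytes (SE 0.28) and 1.39 in astrocytes (SE 0.31, edgeR adjusted p = 4.56e-05), and the values of these glia lay above those of neurons in both libraries. Rps14, whose loss is part of a human myelodysplastic syndrome, was the member with the highest called difference in astrocytes, with 60.2 and 79.7 CPM against 18.4 and 33.9 CPM in neurons. In oligodendrocytes Rps14 was also called, just under the threshold (log2 difference 0.96, SE 0.41, edgeR adjusted p = 0.0493). It had 17.9 and 85.0 CPM there, from 5 and 18 UMIs, so its libraries spread across the neuronal values. Rps4x, the X-linked form of its protein, had 48.2 and 39.8 CPM in astrocytes against 16.9 and 16.0 CPM in neurons, a log2 difference of 1.44 (SE 0.48, edgeR adjusted p = 0.0106). Rpsa, also known as the laminin receptor, had 50.1 and 123 CPM in oligodendrocytes against 22.7 and 35.9 CPM in neurons (log2 difference 1.57, SE 0.33).

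Among large subunit genes, Rpl18 had the highest called difference in oligodendrocytes, 68.0 and 70.8 CPM against 16.0 and 27.4 CPM in neurons, a log2 difference of 1.81 (SE 0.37). In astrocytes Rpl18 had 44.2 CPM from 11 UMIs and 5.69 CPM from 1 UMI, and no call. Rpl34 had 35.8 and 42.5 CPM in oligodendrocytes against 10.1 and 15.02 CPM in neurons (log2 difference 1.72, SE 0.50, edgeR adjusted p = 0.00228). Rpl26, whose protein binds the mRNA of p53 in human cells, had 157 and 66.1 CPM in oligodendrocytes against 34.1 and 41.4 CPM in neurons. Its log2 difference was 1.72 (SE 0.29), with the first library far above the second, the reverse of the family. Rpl38, needed in mice for translation of Hox mRNAs, had 96.6 and 156 CPM in oligodendrocytes and 80.3 and 91.0 CPM in astrocytes, against 31.5 and 63.5 CPM in neurons. The smallest called differences in oligodendrocytes were those of Rpl41, Rpl13 and Rpl19, at 0.78, 0.80 and 0.85 on the log2 scale. In nuclei of 500 to 1500 UMIs the difference of Rpl41 had the opposite sign, -0.26 (edgeR adjusted p = 0.547). In astrocytes they were those of Rpl24, Rpl13 and Rpl9, at 0.85, 0.88 and 0.92.

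Some well-known members passed in neither class. Rps6, the S6 kinase substrate used as a readout of mTOR activity, had log2 differences of 0.17 (SE 0.57) in oligodendrocytes and 0.01 (SE 0.61) in astrocytes. Rpl5, which joins the 5S ribosomal RNA and Rpl11 in a particle that can bind Mdm2, had 0.24 (SE 0.35) and -0.14 (SE 0.39). Rpl11 had 0.80 (SE 0.36) and 0.62 (SE 0.39). Rps19, the most often mutated gene of human Diamond-Blackfan anaemia, had 1.23 (SE 0.57) and 1.15 (SE 0.61), point values above several of the called genes. That they missed the threshold does not show equal levels. Rpl10 had 0.57 and 0.63 and Rpl39 1.13 and 0.69. Of the stalk genes, Rplp1 passed in oligodendrocytes (1.31, SE 0.42), while Rplp0 (0.95, SE 0.68) and Rplp2 (0.71, SE 0.33) did not. Rps27a, made as a fusion with ubiquitin, passed in oligodendrocytes (0.99, SE 0.30), as did Rpl36a (1.44, SE 0.57).

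The smaller classes gave few calls. In oligodendrocyte precursors 2 members were higher and 0 lower (background 7.15% and 9.37%), with a member median of 0.30 against -0.31 over all genes. Rpl13 had 91.7 and 265 CPM in precursors against 39.4 and 59.6 CPM in neurons (log2 difference 1.69, SE 0.32), and Rpl37 had 138 and 102 CPM against 45.6 and 79.9 CPM (log2 difference 1.0, SE 0.34). In tanycytes and ependymal cells 2 members were higher and 0 lower (background 7.5% and 11.0%), with a median of 0.51 against -0.28. The tanycyte median was 0.87 without control replicate 1 and 0.26 without control replicate 2. Rpl26 had 164 and 51.1 CPM there and Rps3, a protein of the mRNA entry site, 72.7 and 85.2 CPM, against 34.1 and 41.4 CPM and 18.3 and 22.3 CPM in neurons. In microglia 0 members passed edgeR's test in either direction (background 5.27% and 14.9%), 3 had an unadjusted p under 0.05, 2 higher and 1 lower, and DESeq2 called 0. Only 104 and 173 member UMIs were counted in microglia, and 26 and 10 of the 77 members had none. Vascular and fibroblast markers summed to 718 and 2879 CPM in the tanycyte cluster, against 78.6 and 82.1 CPM in neurons, and haemoglobin to 54.5 and 2862 CPM, against 5.38 and 19.4 CPM. The part of this RNA in the tanycyte values was not tested.

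**Figure D2:**
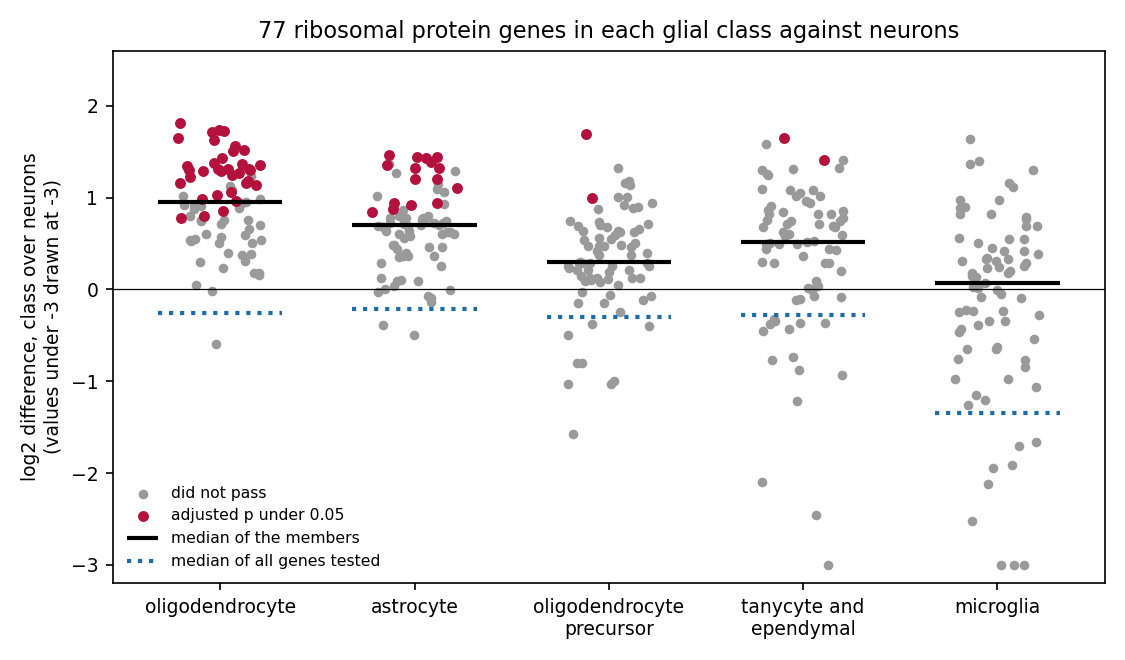
Log2 difference of each of the 77 members between a glial class and neurons (y axis, edgeR, class over neurons), 1 point per gene, with genes that passed an adjusted p of 0.05 in dark red. Member medians (black bars) lie above the medians of all genes tested (dotted) in each class, at 0.95 against -0.26 in oligodendrocytes. The points drawn at -3 are members with 0 UMIs in that class.

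Neurons with more UMIs had a lower share of ribosomal protein RNA, apart from the 2 shallowest bins of control replicate 2. In control replicate 1, neurons with at least 500 and under 1000 UMIs had 0.366% (95% interval 0.340 to 0.394), and the share was 0.279%, 0.208%, 0.164% and 0.119% in the bins that start at 1000, 1500, 2500 and 4000 UMIs. In control replicate 2 the same bins gave 0.402%, 0.411%, 0.322%, 0.243% and 0.187%. Member UMIs per neuron were still higher in deeper bins, at 2.95, 3.50, 4.12, 5.12 and 6.47 in control replicate 1 and 2.98, 5.29, 6.50, 7.55 and 9.77 in control replicate 2. Median UMIs of these bins spanned 833 to 4952 in control replicate 1 and 722.5 to 4821 in control replicate 2. In neurons the member count thus grew with the total, but less than in proportion. Other classes were split into 4 depth groups of nearly equal size. From shallow to deep, the share in astrocytes fell at each step, from 0.362% to 0.241% in control replicate 1 and from 0.523% to 0.344% in control replicate 2. Precursors also fell at each step, from 0.377% to 0.219% and from 0.589% to 0.271%. Not every class showed this order. In oligodendrocytes the share was 0.386%, 0.354%, 0.318% and 0.245% in control replicate 1 but 0.518%, 0.497%, 0.539% and 0.459% in control replicate 2. The same groups of microglia, with 22 to 60 member UMIs each, had 0.294%, 0.363%, 0.219% and 0.243% in control replicate 1 and 0.445%, 0.537%, 0.766% and 0.437% in control replicate 2.

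In neurons this pattern ran through nearly every member. Neurons with 2500 or more UMIs (1262 and 788 nuclei) were set against neurons with 500 to 1500 UMIs (705 and 186 nuclei), with 1 value per library and no test. In control replicate 1, 76 of 77 members had a lower CPM in the deep neurons, against 61.6% of 13178 genes, and 68 were lower past 1.5-fold and 0 higher (background 24.1% and 9.42%). In control replicate 2, 68 members were lower, against 51.9% of genes, and 52 were lower past 1.5-fold and 0 higher (background 21.4% and 20.9%). Past 1.5-fold in both libraries were 44 members, against 8.85% of genes. Median log2 ratios of the members were -1.11 and -0.92, while those of all genes were -0.15 and -0.03.

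Rpl3, a protein near the centre where peptide bonds form, had 12.2 and 29.1 CPM in the deep neurons, against 40.04 and 62.2 CPM in the shallow ones. Rpl5 was closer to even than most, with 51.9 and 36.7 CPM against 63.3 and 57.4 CPM. Rpl22 was the member that was not lower in control replicate 1, with 7.38 CPM against 6.46 CPM from 5 UMIs in the shallow neurons. Several other groups also had a lower CPM in the deep neurons. TOP mRNAs outside the ribosome (18 elongation factor and related genes) had log2 ratios of -0.76 and -0.53, the 78 mitochondrial ribosomal proteins -0.49 and -0.32, and the 31 initiation factors -0.32 and -0.20. The mitochondrially coded genes had -1.34 and -0.58. Oligodendrocyte markers had 129 and 126 CPM in the deep neurons against 201 and 445 CPM in the shallow ones (-0.64 and -1.82), and haemoglobin 3.99 and 19.0 CPM against 18.1 and 19.1 CPM (-2.18 and -0.01). Some of these ratios were thus larger in size than the member medians. Astrocyte markers summed to 596 and 633 CPM in the deep neurons against 531 and 789 CPM in the shallow ones. This sum was higher in control replicate 1 (0.17) and lower in control replicate 2 (-0.32). By gene, 12 of the 15 astrocyte markers were lower in the deep neurons in control replicate 1 and 10 in control replicate 2. The sum of the neuron markers was higher in the deep neurons, by 0.54 and 0.20 on the log2 scale. By gene, however, 8 of the 12 neuron markers were lower there in control replicate 1 and 5 in control replicate 2. The part of RNA from other cells in the pattern was not tested.

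**Figure D3:**
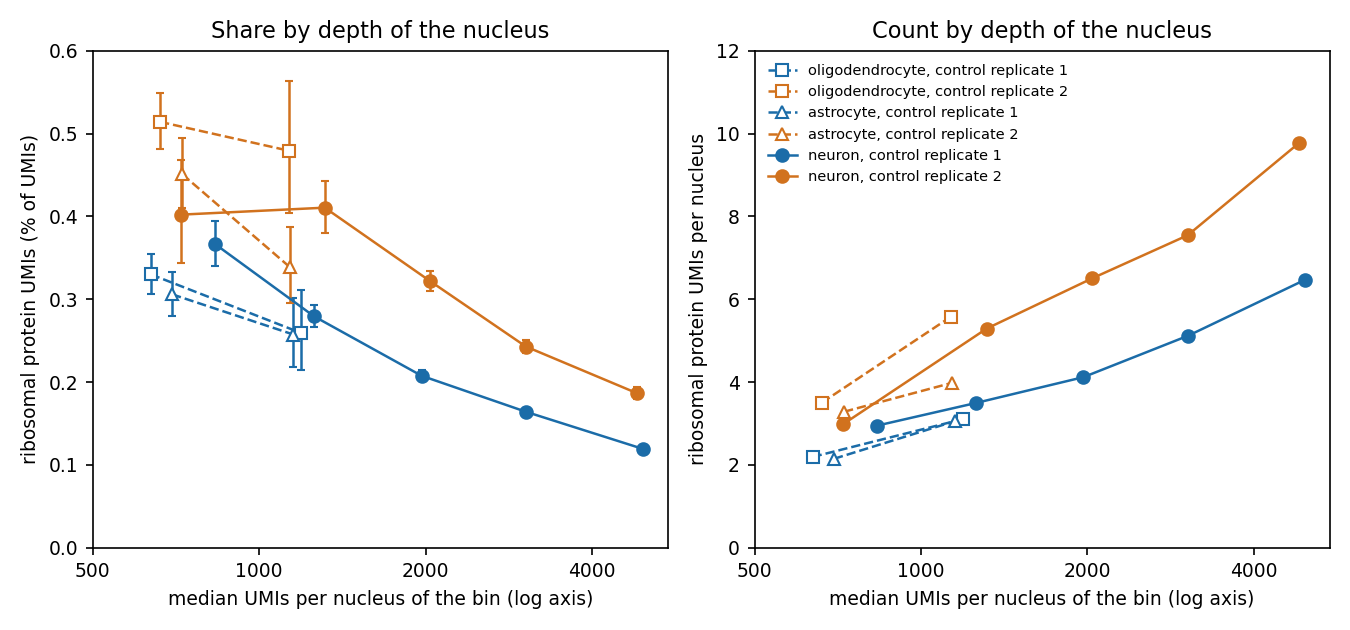
Share of UMIs from the 77 members (left, %, with exact 95% intervals) and member UMIs per nucleus (right) against the median UMI count of nuclei in bins of depth (log axis), for oligodendrocytes and astrocytes (open, dashed) and for neurons (filled, solid) in each library. In neurons of control replicate 1 the share is 0.366% in the shallowest bin and 0.119% in the deepest, and the count per nucleus is 2.95 and 6.47.

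Between nuclei of 500 to 1500 UMIs, most of the class differences were no longer called. Astrocytes had 0.293% and 0.408% there, against 0.301% and 0.409% in neurons, and so were not above neurons in either library. Oligodendrocytes had 0.318% and 0.509%, precursors 0.273% and 0.443%, tanycytes and ependymal cells 0.293% and 0.572% and microglia 0.273% and 0.544%. In this window, with 68 members tested, 2 were higher in oligodendrocytes than in neurons (Rpl26 and Rps24, background 18.1%) and 0 were in astrocytes (background 16.7%). In precursors Rpl13 was higher (background 8.78%) and 0 were lower (background 9.35%). In tanycytes Rpl26 was higher (background 9.23%) and Rpl32 lower (background 13.5%), and in microglia 0 were higher (background 8.74%) while Rpl11 and Rps27 were lower (background 20.9%). These genes were named because so few were called. Member medians in the window were 0.32 in oligodendrocytes, 0.06 in astrocytes, -0.13 in precursors, 0.03 in tanycytes and -0.28 in microglia, above the medians of all genes, -0.12, -0.13, -0.17, -0.18 and -0.71 in the same order. The median glial nucleus of the window was still shallower than the median neuron, at 666 and 680 UMIs for oligodendrocytes against 1127 and 1197.5 for neurons. Neurons of so few UMIs were 705 of 2988 and 186 of 1432.

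Among the 13 neuron clusters the share ranged from 0.151% to 0.219% in control replicate 1 and from 0.225% to 0.336% in control replicate 2. The highest in control replicate 1 was the cluster led by Hcrt, Trh and Gal, with 0.219%, and in control replicate 2 the cluster led by Cartpt and Lepr, with 0.336%. The cluster of Cartpt and Lepr had 0.211% in control replicate 1. The lowest in control replicate 2, with 0.225%, was the cluster led by Pmch. Over the 13 clusters the share and the cluster's median UMI count correlated at r = -0.70 in control replicate 1 and -0.58 in control replicate 2 (Spearman -0.68 and -0.62), given as a description, since clusters of 1 library are no independent samples and share depth.

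The mix of members within the family correlated between classes, to different degrees. Large subunit genes made up 66.1% and 58.9% of the member UMIs in oligodendrocytes and 65.1% and 60.2% in astrocytes, against 66.3% and 63.4% in neurons. Over the 77 genes, each member's part of the family correlated between neurons of the 2 libraries at r = 0.85. Between the libraries it was 0.60 in oligodendrocytes, 0.61 in astrocytes, 0.51 in precursors, 0.17 in tanycytes and 0.22 in microglia. Within a library it correlated between oligodendrocytes and neurons at 0.65 and 0.84 and between astrocytes and neurons at 0.71 and 0.77. In microglia against neurons it was 0.53 and 0.47, from 104 and 173 UMIs. These values describe libraries that share depth and 3′ counting, and genes are not independent replicates.

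Each library was deposited under both labels, so whether the gap between them holds a difference of treatment cannot be told. There is 1 library on each side and no test, and intervals cover counting error only. Members summed to 0.185% of UMIs in control replicate 1 and 0.276% in control replicate 2, a log2 ratio of -0.57 (95% interval -0.60 to -0.54). By gene, 69 of 77 members were lower in control replicate 1 and 8 higher, where 65.1% of all genes were lower. Past 1.5-fold, 46 were lower in control replicate 1 (background 24.4% of 17301 genes) and 1 was higher (background 7.66%). The median over members was -0.64 and that over all genes -0.21. TMM scaling moved the median of all genes to -0.01 and that of the members to -0.45, with 28 members then lower past 1.5-fold (background 15.7%), 65 lower in any amount and 1 higher past 1.5-fold. The exact interval lay below 0 for 62 members, above 0 for 1 and across 0 for 14. The share of all genes with such intervals is not given here.

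The small subunit genes as a sum had a ratio of -0.70, from 0.0628% in control replicate 1 and 0.102% in control replicate 2, and 21 of 31 were lower past 1.5-fold. The large subunit genes had -0.50, from 0.123% and 0.174%, and 25 of 46 were lower past 1.5-fold. The 5 lowest ratios among members with 100 or more UMIs belonged to Rps28, Rps29, Rpl13a, Rpl37a and Rps16. Rps28, a small protein of the small subunit, had 101 UMIs in control replicate 1 and 159 in control replicate 2, or 11.5 and 32.3 CPM, a log2 ratio of -1.49 (-1.86 to -1.12). Rps29, a zinc-binding protein, had 147 and 226 UMIs, or 16.7 and 45.9 CPM, a ratio of -1.45 (-1.76 to -1.15). Both were lower in control replicate 1 within oligodendrocytes, astrocytes and neurons, where Rps29 had 28.6 against 89.7 CPM, 32.1 against 108 CPM and 15.6 against 38.8 CPM. Rpl13a, which in human myeloid cells also acts in a complex that silences inflammatory mRNAs, had 10.48 and 25.4 CPM (-1.28), Rpl37a 15.03 and 35.3 CPM (-1.23) and Rps16 15.6 and 34.7 CPM (-1.15). In oligodendrocytes Rpl13a ran the other way, with 46.5 CPM from 13 UMIs and 37.8 CPM from 8 UMIs.

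Rpl5 stood apart from the other members. It had 505 UMIs in control replicate 1 and 180 in control replicate 2, or 57.5 and 36.6 CPM, a log2 ratio of 0.65 (0.41 to 0.91), and its interval was the only one above 0. The direction was the same in every class, with 75.2 against 28.3 CPM in oligodendrocytes, 68.2 against 11.4 CPM in astrocytes, 98.2 against 50.9 CPM in precursors, 109 against 17.0 CPM in tanycytes, 131 against 62.9 CPM in microglia and 54.7 against 38.5 CPM in neurons. UMIs outside neurons were few, 21 and 6 in oligodendrocytes and 17 and 2 in astrocytes. Rpl11, its partner in the 5S particle, followed the family, with 32.01 and 45.9 CPM (-0.52, -0.78 to -0.26). In the GENCODE M21 annotation Rpl5 overlaps Fam69a, which lies on the opposite strand and is named Dipk1a in the files. Dipk1a had 63.6 and 57.1 CPM (log2 ratio 0.16). No source used here gives the strand setting of the counting, so reads of the pair cannot be told apart. The next highest ratios, of Rpl29 (36.7 and 32.3 CPM, 0.18), Rps4x (18.8 and 17.3 CPM, 0.12), Rps26 (27.9 and 26.6 CPM, 0.07) and Rps25 (22.1 and 21.5 CPM, 0.04), had intervals that spanned 0. Rpl27a, with most UMIs of all, was close to even, at 69.1 and 72.1 CPM (-0.06, -0.25 to 0.13).

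**Figure D4:**
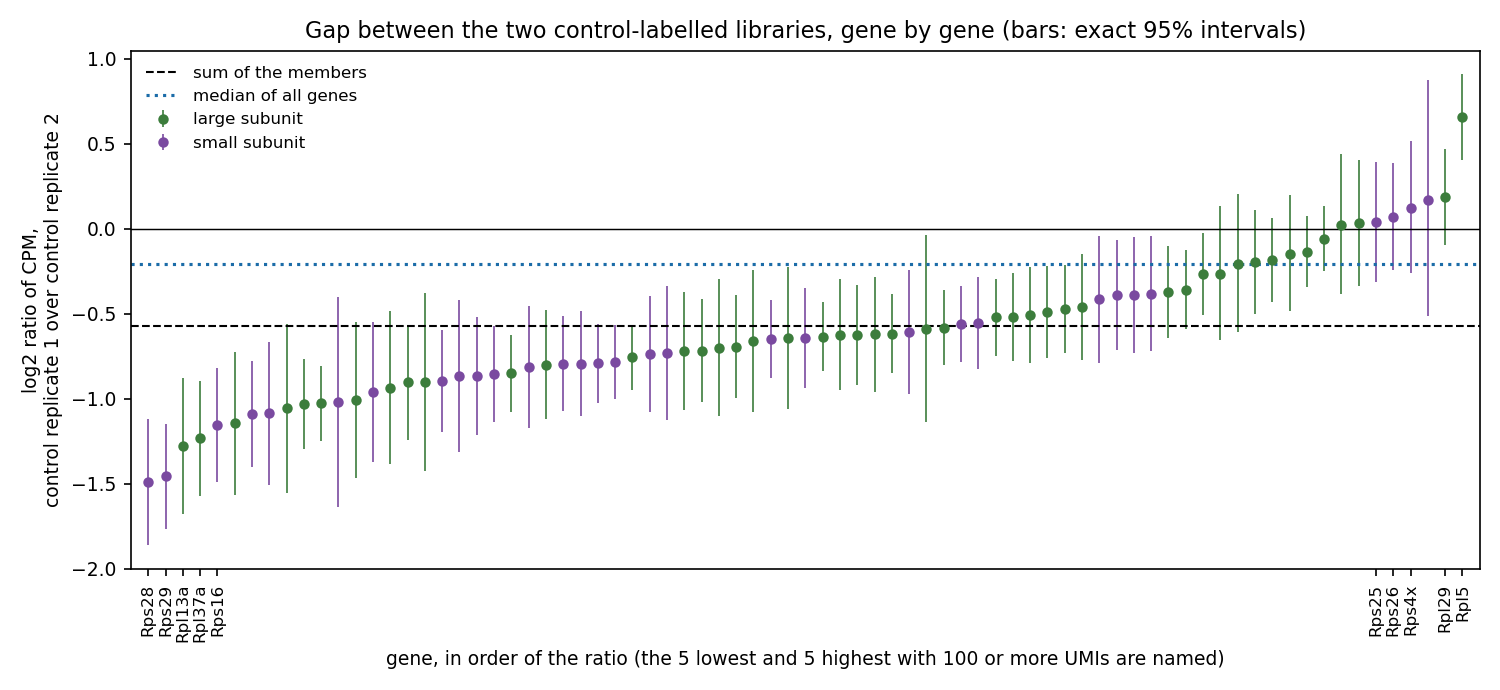
Log2 ratio of CPM between the control-labelled libraries (y axis, control replicate 1 over control replicate 2) for each of the 77 members in order of the ratio, with exact 95% intervals for counting error. Of the intervals, 62 lie below 0, and that of Rpl5, at 0.65, is the one above 0. The same count over all genes is not given.

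The gap was present in every class and at nearly every depth. Log2 ratios of the summed members were -0.68 in oligodendrocytes, -0.50 in astrocytes, -0.51 in precursors, -0.93 in tanycytes, -0.997 in microglia and -0.52 in neurons, and no interval reached 0. All 13 neuron clusters were lower in control replicate 1, with ratios from -0.81 to -0.40. Within bins of UMI count, the neuronal ratio was -0.13 in the bin that starts at 500 UMIs, of which control replicate 2 had 56, and -0.56, -0.63, -0.57 and -0.65 in the deeper bins. In oligodendrocytes it was -0.64 and -0.89 in the bins that start at 500 and 1000 UMIs, and in astrocytes -0.56 and -0.40.

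**Figure D5:**
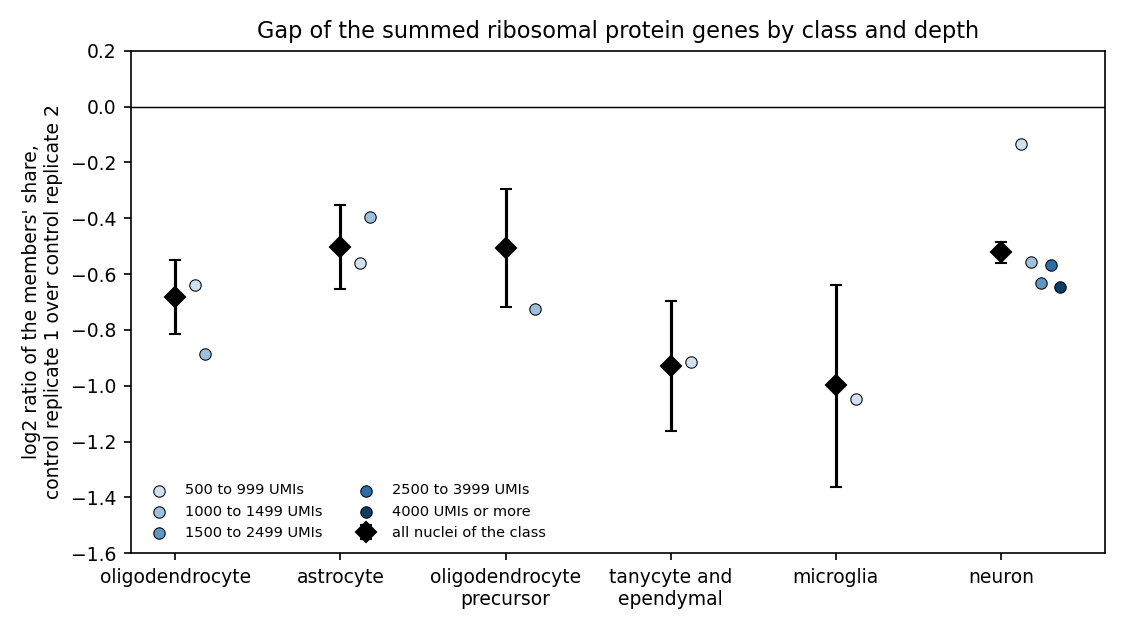
Log2 ratio of the members' summed share of UMIs between the control-labelled libraries (y axis, control replicate 1 over control replicate 2) by cell class (diamonds, with exact 95% intervals) and within bins of nuclear UMI count that held at least 20 nuclei in both libraries (circles). All points lie below 0, from -0.13 in the shallowest neurons to -1.05 in shallow microglia.

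Other RNAs of translation and of other cells had gaps of different sizes. For their counts past 1.5-fold the background was again 24.4% lower and 7.66% higher. The TOP mRNAs outside the ribosome summed to 509 CPM in control replicate 1 and 690 CPM in control replicate 2 (log2 ratio -0.44), and 8 of 18 were lower and 0 higher past 1.5-fold. Eef1a1, the main elongation factor, had 62.1 and 107 CPM (-0.78), and Gas5, a noncoding TOP RNA that hosts snoRNAs, 15.9 and 53.2 CPM (-1.74). Hnrnpa1, an RNA-binding protein with a TOP mRNA, was higher, at 76.8 and 56.0 CPM (0.45). Initiation factors summed to 1466 and 1456 CPM (0.01), but their median ratio was -0.33, with 9 of 31 lower and 3 higher past 1.5-fold. As sums, ribosome biogenesis genes stood at 843 and 952 CPM (-0.17) and mitochondrial ribosomal proteins at 1183 and 1348 CPM (-0.19). The last 2 lists were thus near the median of all genes. Mitochondrially coded genes had 119 and 176 CPM (-0.57), haemoglobin 7.52 and 61.3 CPM (-3.03), vascular and fibroblast markers 94.3 and 133 CPM (-0.50) and nuclear long noncoding RNAs 47017 and 57793 CPM (-0.30). The median over the noncoding list had the opposite sign to its sum, 0.28, with 1 of 9 lower and 2 higher past 1.5-fold. Control replicate 2, the library with more ribosomal protein RNA, thus also had more haemoglobin and mitochondrially coded RNA over all nuclei. By class, mitochondrially coded RNA was lower in control replicate 2 in oligodendrocytes (369 and 264 CPM) and microglia (420 and 378 CPM). Precursors were close to even (229 and 234 CPM). It was higher there in astrocytes (349 and 467 CPM), tanycytes (400 and 903 CPM) and neurons (93.6 and 147 CPM). The part of haemoglobin and mitochondrially coded RNA in the gap was not tested. Rps3a1 and Fau, ribosomal protein genes outside the symbol rule, had ratios of -0.84 and -0.69.

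The gap varied little with simple features of the genes. Over 77 members it correlated with the gene's span at r = 0.03, with its intronic length at 0.06 and with its number of snoRNA genes at 0.12, given as descriptions. The 29 members that host snoRNA genes, 56 in all, had a median ratio of -0.64, and so did the 48 that host none. Members with a pyrimidine run of 8 or more at the start had a median of -0.62 (28 genes), against -0.74 for those without (29 genes), and members with CCGGAAG had -0.58 (24 genes), against -0.72 (33 genes). Of the stretches printed above, Rpl13a with a run within 10 bases of the start and Rpl37a, Rps16 and Rps28 without one there all had ratios under -1.1. Rpl27a, with a long run there, was near even, and Rpl5, without one there, was higher. In the annotation, 20 of the 77 members overlap a gene on the opposite strand, among them Rps14, Rps28, Rpl3 and Rpl18. Processed pseudogene copies of these genes exist in the mouse genome, and no source used here says how reads that match several places were counted, so single-gene values are uncertain to that extent.

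Other genes of the translation machinery differed less uniformly between classes. Of the 18 TOP mRNAs outside the ribosome, 4 were higher and 1 lower in oligodendrocytes than in neurons and 3 higher and 2 lower in astrocytes, with medians of 0.60 and 0.35. For these and the following lists the background was 14.7% higher and 21.4% lower in oligodendrocytes and 13.4% and 17.8% in astrocytes, and several of the counts lie near or below it. Fau, which codes for a ribosomal protein fused to a ubiquitin-like one, had 115 and 123 CPM in oligodendrocytes against 40.5 and 67.1 CPM in neurons (log2 difference 1.27, SE 0.27). Eef1a1 had 104 and 194 CPM in oligodendrocytes and 120 and 222 CPM in astrocytes, against 59.3 and 96.4 CPM in neurons. Of 31 initiation factors, 2 were higher and 1 lower in oligodendrocytes and 1 higher and 2 lower in astrocytes. Eif1, which guards start codon choice, had 193 and 179 CPM in oligodendrocytes against 61.6 and 66.6 CPM in neurons (log2 difference 1.62, SE 0.23). Of 35 biogenesis genes tested, 2 were higher and 3 lower in oligodendrocytes and 0 higher and 2 lower in astrocytes. There Fbl, the rRNA methylase fibrillarin, was higher in oligodendrocytes (1.42, SE 0.45) and Mdn1, an ATPase of large subunit assembly, lower (-1.29, SE 0.30). Of 77 mitochondrial ribosomal proteins tested, 1 was higher and 1 lower in oligodendrocytes and 1 higher and 0 lower in astrocytes, with medians of 0.17 and 0.16. Among 15 tested regulators of TOP mRNA translation, Tsc1, an inhibitor of mTOR, was lower in astrocytes (-1.28, SE 0.27), while Rptor, a subunit of mTOR complex 1, was higher in microglia (1.31, SE 0.32). Mitochondrially coded genes, whose mature RNA lies outside the nucleus, were higher for 4 of 10 in oligodendrocytes and 7 of 10 in astrocytes, with medians of 1.501 and 1.85, beside the ribosomal protein genes.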

How the data were processed

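Per the labels' protocols, frozen tissue was taken through a nucleus isolation kit and a Chromium 3′ library, version 3.1. What was deposited are UMI counts per gene and barcode, made by the authors with Cell Ranger, per the file headers. Its version was 5.0.1 and the only build named is the human GRCh38, both per the submitters' processing notes, though the gene identifiers are of mouse. No source used here names a mouse build or says how barcodes were chosen, and no barcode had fewer than 500 UMIs.

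Groups follow the treatment label, with replicates numbered in accession order. Apart from titles that join animal codes, nothing states how many animals stand behind a library, so p-values do not measure the spread between animals. In the class test, library is a term. Its p-values thus rest on how far the class differences vary between the libraries, which may be technical, and not on the gap between them. Filters of 300 genes and 5% mitochondrial counts removed 0 nuclei. Scrublet in scanpy 1.11.5 called 0.150% and 1.95% of nuclei in control replicates 1 and 2 as doublets, which were left out. It did not work in control replicate 1, so doublets are in effect still present. Nuclei were clustered over both libraries without the members' counts (3000 variable genes, 40 components, 20 neighbours, leiden resolution 1, igraph 0.11.9).

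UMI counts were summed per library and class and fitted with edgeR 4.0.16 in R 4.3.3 (quasi-likelihood, TMM, class and library as terms, genes with 50 or more UMIs over all sums, Benjamini-Hochberg, threshold 0.05), each class against neurons. Standard errors were derived from the fit's F statistic. Alternatives included DESeq2 1.42.0. CPM uses total UMIs. Intervals are exact at 95% (Poisson for shares, conditional binomial for ratios, Clopper-Pearson for shares of nuclei) and cover counting error only. The script was tested on simulated data.

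The labels' test took all 4 matrices. Same-numbered matrices hold the same nuclei, so they are paired, and their deviations from the group means correlated at 0.945 over 14940 genes.

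Members and lists were chosen with earlier results of these data known. Bins of depth, the comparison of deep with shallow neurons, the split by subunit and the split by promoter feature were chosen after the data were seen. Named genes were a set of well-known members, the 10 with most UMIs, those nearest the limit of 10 UMIs, up to 3 highest and 3 lowest called differences per class, and the 5 highest and 5 lowest ratios between libraries among members with 100 or more UMIs. From other lists up to 2 called genes with the smallest p per class were named. Rpl10a, Rpl22, Rps24, Rpl32, Rps27, Rpl3, Gas5, Hnrnpa1, Dipk1a and the genes of neuron clusters were chosen after their values were seen. Some genes that this rule names are not reported here.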

Additional observations from a re-analysis of the deposited data

How the results depend on the processing

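By a limit of 1.5 times for counts and 1 SD for values, 139 of 164 alternative values of the main results stayed near the reported one and 25 moved. DESeq2 called 18 members higher than neurons in oligodendrocytes, 8 in astrocytes and 1 in precursors. With no low-count filter, and so more genes tested, the counts were 20, 6 and 1, and 0 in tanycytes. In nuclei of 500 to 1500 UMIs, which leaves fewer counts, they were 2 in oligodendrocytes, 0 in astrocytes, 1 in precursors and 1 in tanycytes, with 1 lower in tanycytes and 2 lower in microglia, and the share in neurons was 0.355%. There the precursor median was -0.13 and Rpl41 in oligodendrocytes was -0.26, both reversed, and the cause was not tested. The transplanted-labelled matrices gave 1 in precursors and 1 in tanycytes, and filterByExpr 4 in precursors and 1 in microglia. Library sizes alone gave 9 in tanycytes and 2 in microglia, and DESeq2 size factors 1 in microglia. Apart from the nuclei of 500 to 1500 UMIs, shares over all genes under these alternative class tests are not given here. Past 1.5-fold, 28 members were lower in control replicate 1 with TMM (background 15.7%) and 27 with DESeq2 size factors (background 15.3%). Past 2-fold 13 were lower (background 9.21%) and 0 higher (background 2.69%). Of 175 values of named genes, 130 stayed on their side of the threshold, 44 lost their call and 1 reversed. No neuron cluster was led by other classes' markers, so leaving such clusters out changed nothing.

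Leaving out each library in turn, the share ranged from 0.310% to 0.498% in oligodendrocytes, 0.286% to 0.406% in astrocytes, 0.251% to 0.357% in precursors, 0.275% to 0.525% in tanycytes, 0.273% to 0.544% in microglia and 0.175% to 0.251% in neurons. The test of members by class then has no residual degrees of freedom and gave values only. With the replicate as a block, the labels' test called 0 members and 1 gene in all, and leaving out each matrix gave 0 to 0 members, the lone sample being assumed to vary like the others. Counts limit microglia, tanycytes and precursors most, where 104 to 384 member UMIs stand behind a library, and 1 library on each side limits the gap.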
